A study of Mus musculus with 6 samples.

Results

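The replication-dependent histone genes encode the linker histone H1 and the core histones H2A, H2B, H3 and H4, around which DNA is wound. They were taken by name, as every gene of the deposited count table whose symbol begins with Hist1h, Hist2h, Hist3h or Hist4h. The rule gave 68 of the 49315 genes in the table, 6 for H1, 20 for H2A, 17 for H2B, 12 for H3 and 13 for H4. By cluster, 54 carry the prefix Hist1, 10 Hist2, 3 Hist3 and 1 Hist4. The rule goes by symbol, so it also takes variants known from germ cells (Hist1h1t, Hist1h2aa and Hist1h2ba) and 3 pseudogenes.

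RNA was sequenced from fully grown germinal vesicle oocytes, immature eggs that still hold their nucleus, of 3 Control mice and 3 mice lacking Rpa1 in oocytes (Rpa1 OcKO). The protein of Rpa1 is a subunit of RPA, the complex that coats single-stranded DNA. All mice were 4 to 5 weeks old and had received PMSG, a hormone that stimulates follicle growth. Each library pooled about 20 oocytes of 1 mouse, freed of cumulus cells, so the spread between libraries holds that between animals and that of library preparation. The sources used here give neither the Cre driver, the allele and the strain nor the genotype of the Control mice. Rpa1 itself was at 155, 155 and 140 CPM (a gene's count scaled to library size and composition, the latter by TMM factors) in Control 1 to 3 and at 7.76, 4.14 and 6.84 CPM in OcKO 1 to 3, a log2 fold change of -4.59 (SE 0.31, adjusted p = 0.0064, edgeR quasi-likelihood test). That adjusted p was 0.053 without Control 2, 0.059 without Control 3 and 0.096 without OcKO 3. Total counts ranged from 36280148 to 44575222 per library, so that 1 count was worth 0.0220 to 0.0288 CPM, and no pair of the 6 libraries correlated below 0.896 across genes.

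Most messages of these genes differ from all other mRNAs in that they end in a short stem-loop instead of a poly(A) tail. The stem-loop is bound by Slbp, the U7 snRNP (with its proteins Lsm10 and Lsm11) directs the cut behind it, and Npat and Casp8ap2 act at the genes themselves. In dividing cells these messages rise in S phase and are degraded after it. Oocytes are arrested in meiosis and replicate no DNA, but store histone messages with Slbp bound to them. The library kit starts its cDNA at poly(A) tails, so a message was counted only as far as that primer copied it. What share of the levels below is set by this step was not tested.

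The stem-loop was searched as GG, any 3 bases, TT, any base, T, any base, A, any 3 bases and CC, on the sense strand within 100 bases after the stop codon. Of the 50 histone genes with a transcript model (GENCODE M21, GRCm38) that runs past the stop codon, 44 held it, against 59 of 21020 other coding genes (0.281%). The other 18 had no such window. The stems below are in capitals (6 bases on either side), the 4 bases of the loop in lower case. They are shown because the stem separates the H4 genes from the rest.

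Hist3h2ba: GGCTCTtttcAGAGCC
Hist1h1c: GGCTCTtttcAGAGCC
Hist1h2bk: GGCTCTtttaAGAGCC
Hist1h3f: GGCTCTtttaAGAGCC
Hist1h4h: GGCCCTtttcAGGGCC
Hist1h4i: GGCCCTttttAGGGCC

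The form of Hist3h2ba was the commonest, with 24 genes (3 of H1, 10 of H2A, 6 of H2B and 5 of H3). That of Hist1h2bk was found in 6 genes (1 of H1, 2 of H2B and 3 of H3), and that of Hist1h4h in 7, all of H4. None of the 12 H4 genes with a stem-loop had the stem of the other families. The 6 genes with a window but no stem-loop were Hist1h2bc, Hist1h1a, Hist1h2br, Hist1h2bq, Hist2h2be and Hist2h3b. A poly(A) signal (AATAAA or ATTAAA in the last 40 bases of a model) was scored only in models that run past the stop codon. It was present in 17 of the 50 histone genes with such a model and in 79.6% of other coding genes with one.

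Few of the 68 genes were seen at more than trace levels. In 44 of them (64.7%) every library was under 1 CPM, a share close to that of all genes in the table, where 32109 (65.1%) were. Of these 44, 3 were H1 genes, 16 H2A, 10 H2B, 8 H3 and 7 H4, out of 6, 20, 17, 12 and 13. The Hist1 cluster held 34 of them, Hist2 held 9, Hist3 held 1 and Hist4 none. Both group means were under 1 CPM for 52 genes, and 5 genes, Hist1h2bc, Hist1h2aa, Hist3h2ba, Hist1h2bk and Hist1h1c, were at 1 CPM or more in every library.

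No count at all was recorded for 16 genes in any library, 7 of H2A, 4 of H2B, 4 of H3 and 1 of H4. A count of 0 allows up to 3 counts in a library. Of these 16 genes, 7 belong to Hist2, which has only 10 members. The remaining 52 genes divided into 12 with counts in 1 library, 7 in 2, 4 in 3, 4 in 4, 9 in 5 and 16 in all 6. The 6 libraries detected 28, 31 and 31 histone genes in Control and 33, 34 and 38 in OcKO.

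**Figure D1:**
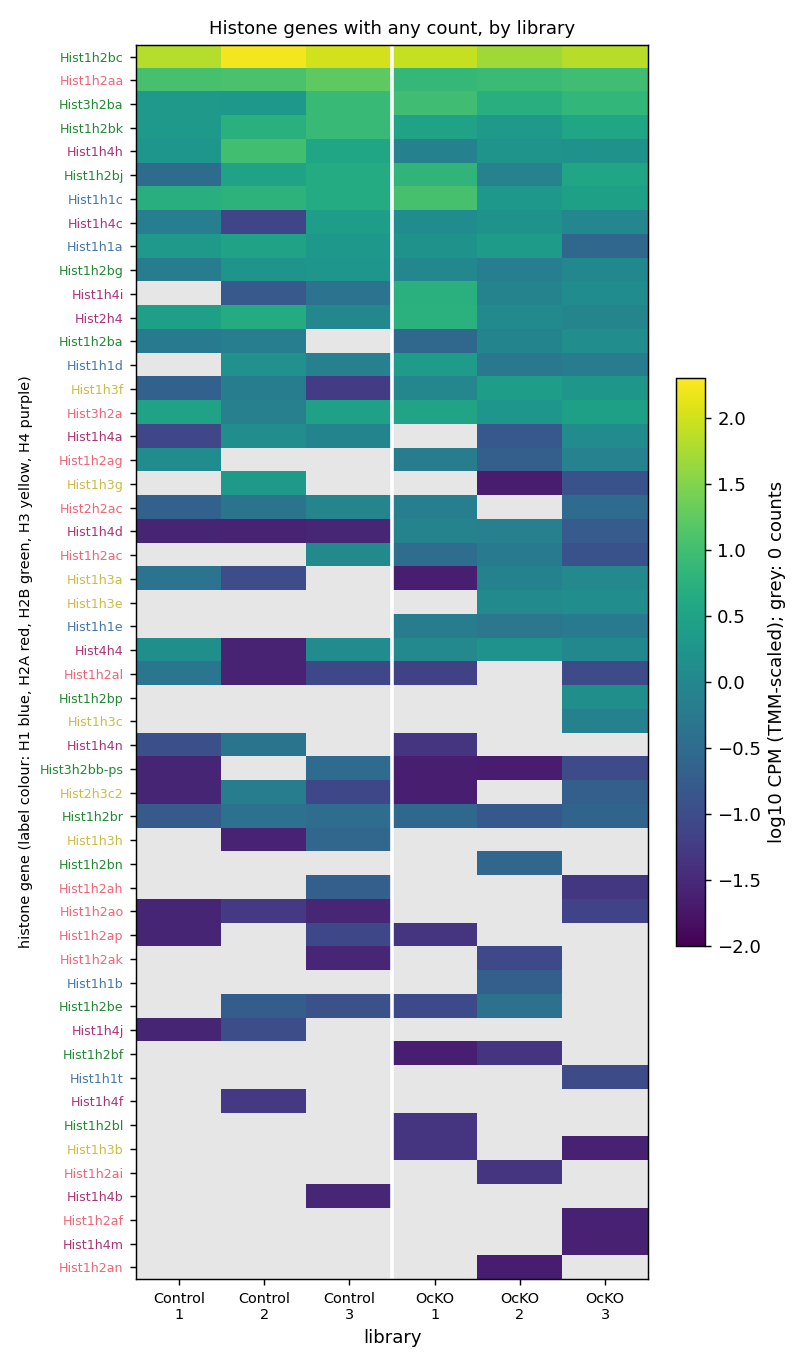
The 52 histone genes with any count (rows, in order of CPM per kb over all libraries, label colour by family) in each library (columns), shaded by log10 of the TMM-scaled CPM, with grey for 0 counts. Of the rows, 16 are filled in all 6 libraries and 12 in a single one.

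Many of these genes are near-identical in their coding sequence. On the M21 transcripts, 36 of the 68 genes shared more than 50% of their 50-base stretches with another gene. Of the 16 genes at 0 counts, 12 were among these 36. All 13 genes that shared more than 90% were under 1 CPM in every library, 7 of them at 0. In 5 genes, Hist2h2aa1, Hist2h2aa2, Hist2h3c1, Hist2h3b and Hist2h2bb, the exons lay wholly within those of another gene, and all 5 were at 0. The sources used here do not say how multiply matching reads were counted, so a value of 0 for these genes cannot be told apart from reads set aside in counting. Among the 32 genes sharing 50% or less, 13 were under 1 CPM in every library. The gene span was the same in M21 and in the deposited annotation for 47 of the 68 genes. For others, such as Hist1h1d, Hist1h2ac and Hist1h1e, M21 sequence lies outside the counted exons. The shared percentage of their counted exons may therefore differ from the one given.

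**Figure D2:**
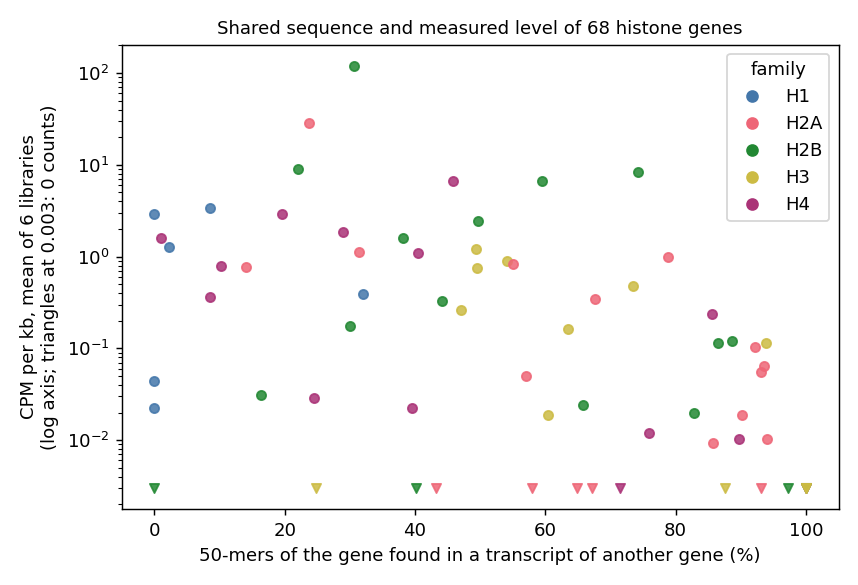
Each of the 68 histone genes by the percentage of its 50-base stretches (M21 models) found in a transcript of another gene (x axis) and its mean CPM per kb over the 6 libraries (y axis, log scale), coloured by family, with triangles for genes at 0 counts. The 13 genes to the right of 90% include 7 at 0.

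A single H2B gene gave most of the histone reads. Hist1h2bc accounted for 55.3 to 74.3% of all counts on the 68 genes, which together made up 0.00895 to 0.0203% of each library. It was at 66.2, 165 and 99.6 CPM in Control 1 to 3 and at 84.2, 48.5 and 67.7 CPM in OcKO 1 to 3. The groups overlapped, since Control 1 lay below OcKO 1 and OcKO 3, and the log2 fold change of -0.72 (SE 0.37) did not pass the test (adjusted p = 0.544), and was -0.28 without Control 2. Per kb of exon it stood at 120 CPM over all libraries. Its deposited model (chr13:23684199-23692488, plus strand, GRCm38) has 2 exons, while 63 of the 68 genes have 1, and none of the M21 models carried a stem-loop in the window.

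Second per kb was Hist1h2aa, an H2A variant known from testis and egg, with 28.3 CPM per kb. It was at 11.2, 11.8 and 17.4 CPM in Control and at 7.26, 8.69 and 9.72 CPM in OcKO. Every OcKO library lay below every Control library, but the log2 fold change of -0.66 (SE 0.43) did not pass the test (adjusted p = 0.666). Part of its exon, 129 of 390 bases, overlaps a gene on the other strand, and without strand information reads there cannot be assigned. Its neighbour on the opposite strand is Hist1h2ba, the matching H2B variant. That gene was at 0.579, 0.686 and 0 CPM in Control and at 0.274, 0.880 and 1.28 CPM in OcKO. Per kb it reached 1.61 CPM, against 28.3 for Hist1h2aa.

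The start regions of this pair overlap and are shown because a single stretch of DNA lies between genes of such different level. Promoters (RefSeq, GRCm38.p6, 250 bases before to 50 after the start) matched 60 of the 68 genes. That of Hist1h2aa is chr13:23934187-23934486 on the plus strand. It shares 220 bases with that of Hist1h2ba, chr13:23934107-23934406 on the minus strand. Capitals mark the octamer ATTTGCAT, CCAAT and TATAAA on either strand.

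Hist1h2aa: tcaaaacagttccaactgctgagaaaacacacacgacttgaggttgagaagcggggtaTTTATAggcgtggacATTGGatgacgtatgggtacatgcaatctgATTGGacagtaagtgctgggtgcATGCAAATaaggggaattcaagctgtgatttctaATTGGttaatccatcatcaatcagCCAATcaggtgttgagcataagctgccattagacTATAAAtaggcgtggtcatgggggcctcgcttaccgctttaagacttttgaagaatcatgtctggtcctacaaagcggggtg

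The octamer, the site of Pou2f1 (Oct-1), was found in 7 of 18 H2A and 6 of 14 H2B promoters and in none of H1, H3 or H4, against 1.92% of all other genes. The single copy in the Hist1h2aa promoter lies in the shared stretch. The facing promoters of Hist1h2ah and Hist1h2bk, and those of Hist1h2ae and Hist1h2bg, also share their copy. Any site in such a shared stretch is counted for both genes, so the H2A and H2B counts are not independent. CCAAT was present in all 6 H1, 18 H2A, 14 H2B and 10 H3 promoters but in 3 of 12 for H4 (other genes, 41.0%). TATAAA was present in 35 of the 60 histone promoters (other genes, 15.6%). No promoter of Hist1h2bc was matched.

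In all, 13 pairs of an H2A and an H2B gene face away from each other in this way within 500 bases, with 172 to 305 bases between the genes. The H2B gene had the higher CPM per kb in 9 pairs and the H2A gene in 4. Every H2A gene has exon bases that overlap another gene, while most H2B genes have none, and reads there may not have been assigned. Some pairs rest on few reads. Hist1h2bl and Hist1h2ai had 2 counts each over all libraries, and Hist1h2bf had 3 against 0 for Hist1h2ad. Hist3h2bb-ps, the partner of Hist3h2a, is a pseudogene. Only Hist1h2ba and Hist1h2aa both reached 1 CPM per kb, and in 5 pairs just 1 partner did. The largest difference in level was between Hist1h2ac and Hist1h2bc, at 0.774 and 120 CPM per kb. In Hist1h2ah and Hist1h2bk the levels were 0.103 and 8.47, and in Hist1h2ag and Hist1h2bj they were 0.993 and 6.67.

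**Figure D3:**
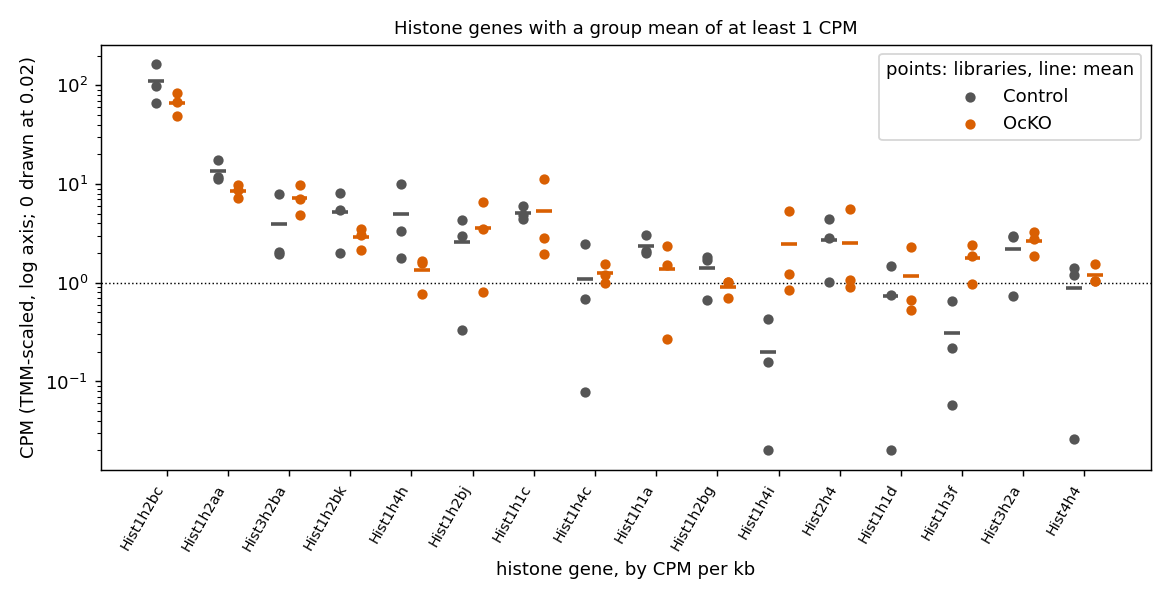
TMM-scaled CPM (log axis) of the 16 histone genes with a mean of at least 1 CPM in a group, ordered by CPM per kb, with 1 point per library, a line at each group mean, values of 0 drawn at the bottom and a dotted line at 1 CPM. Hist1h2bc lies above all others in every library, and most other genes lie within a few CPM of the dotted line.

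The comparison of OcKO with Control oocytes asks whether loss of Rpa1 goes with other levels of histone messages. In pooled oocytes, fewer cells with a message and less of it per cell cannot be told apart. Of the 68 genes, 24 passed the filter on low counts and were tested, 4 of H1, 5 of H2A, 7 of H2B, 2 of H3 and 6 of H4. None was called higher or lower at an adjusted p under 0.05 with edgeR, DESeq2 or limma voom. Over all 16060 genes tested, edgeR called 0.143%, 0.137% higher and 0.00623% lower, so a count of 0 among 24 is near the background. DESeq2 called 4.7% of all genes and voom 0.00623%. At an unadjusted p under 0.05, 1 histone gene was higher and 0 lower with edgeR, namely Hist1h1e, which entered the test only through its OcKO counts (all genes, 5.93% and 5.21%), 2 were higher and 1 lower with DESeq2 (7.74% and 6.68%), and 1 was higher and 0 lower with voom (7.55% and 6.18%). The libraries of the groups did not overlap for 3 tested genes that were higher in OcKO, Hist1h1e, Hist1h4i and Hist1h3f, and for 2 that were lower, Hist1h2aa and Hist1h4h. That compares with 10.7% and 8.67% of all genes tested. The 3 higher genes would not have passed the filter on low counts without their OcKO counts. The fold change was positive for 13 genes and negative for 11, with a median log2 fold change of 0.14, beside 0.01 for all genes tested. Further positive genes, among them Hist1h1d, Hist1h4c and Hist4h4, passed the filter on low counts only with their OcKO counts. So did some negative genes, such as Hist1h2br and Hist1h2ac. The split and the median are therefore not read further. The median was the same with Hist1h1e, at 0 in Control, set to its bound given below. That follows by construction, because the bound still lies above the value of every other tested histone gene. The median was -0.13 without OcKO 1 and 0.46 without Control 3.

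The precision at these levels was low. The median biological coefficient of variation was 0.97 for the tested histone genes and 0.55 for all genes tested. The comparison was repeated at like depth. For genes between the lower and the upper quartile of the histone genes' summed counts (131.5 and 735.25), it was 1.03 for 12 histone genes and 1.11 for 3847 genes in all. The median SE of the log2 fold change was 1.13, beside 0.59 for all genes.

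**Figure D4:**
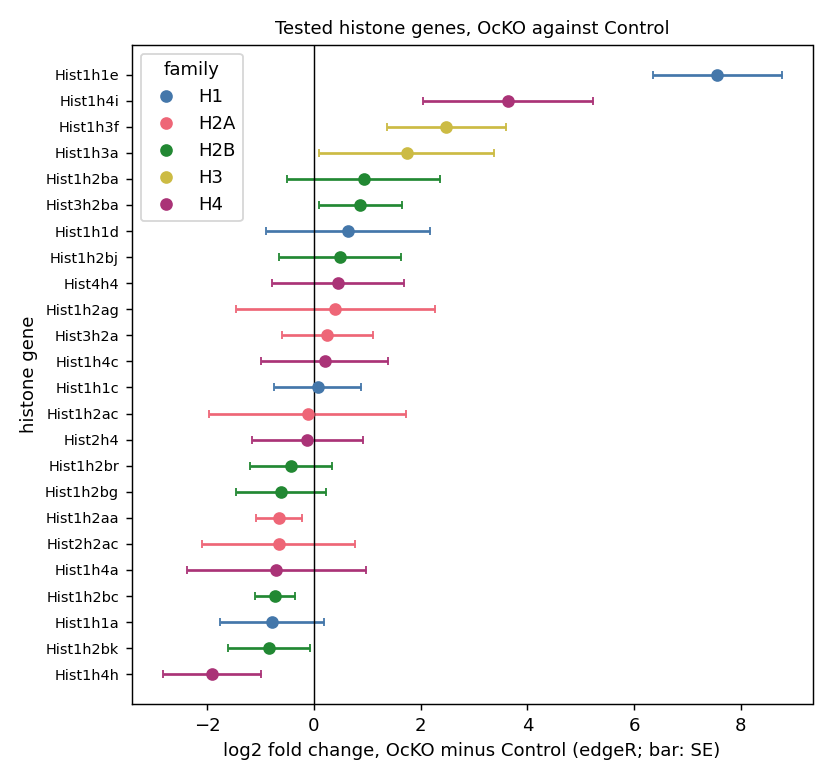
Log2 fold change (OcKO minus Control, edgeR) of the 24 tested histone genes, ordered by size and coloured by family, with bars of 1 SE. No gene was called, and only Hist1h1e, whose fitted value of 7.55 depends on the prior count because Control was at 0, had an unadjusted p under 0.05.

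Among the linker histones, the summed H1 level was 8.20 ± 2.01 CPM in the Control group, against 8.59 ± 6.23 in the OcKO group (SD, n = 3 each). Over all libraries Hist1h1c had 3.35 and Hist1h1a 2.92 CPM per kb, and in Control 3.26 and 3.69. Hist1h1c was at 4.88, 6.01 and 4.38 CPM in Control and at 11.3, 1.96 and 2.83 CPM in OcKO. OcKO 1 lay above and the other OcKO libraries below all Control libraries. Its log2 fold change was 0.08 (SE 0.81), and -1.09 without OcKO 1. Hist1h1a was at 2.10, 3.03 and 1.99 CPM and at 1.53, 2.33 and 0.271 CPM in the same order. Hist1h1d was at 0, 1.48 and 0.749 CPM in Control and at 2.28, 0.528 and 0.665 CPM in OcKO, again highest in OcKO 1 (log2 fold change 0.64, -0.32 without OcKO 1 and 1.65 without Control 2).

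Hist1h1e, chosen after its values were seen, was the histone gene with the smallest p. It had 0 counts in each Control library and 28, 23 and 25 counts in OcKO 1 to 3, or 0.587 ± 0.071 CPM (SD, n = 3). Against 3 counts over the Control group this was at least 21.2-fold higher. This bound covers counting error alone, because the reads carry no molecular identifiers. It passed the filter on low counts through its OcKO counts alone, so that it had to differ to be tested, and its p supports nothing further (adjusted p = 0.120, edgeR). On its M21 models, which extend beyond the counted exon, it shares 32.0% of its 50-base stretches with other genes. Hist1h1b was seen in OcKO 2 alone with 9 counts, and Hist1h1t, a testis variant, in OcKO 3 alone with 4.

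For H2A the summed level was 17.4 ± 4.97 CPM in Control, against 12.6 ± 1.29 in OcKO, most of it Hist1h2aa. Hist3h2a was at 2.95, 0.738 and 2.91 CPM in Control and at 3.24, 1.85 and 2.78 CPM in OcKO. The groups overlapped (log2 fold change 0.25, SE 0.85, and -0.13 without Control 2). The other 18 H2A genes had group means under 1 CPM, and 16 of the 20 H2A genes were under 1 CPM in every library. The 5 tested had a median log2 fold change of -0.12.

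H2B had the highest summed CPM of the families, 124 ± 53.2 CPM in Control, against 83.3 ± 23.3 in OcKO, and without Hist1h2bc at 14.0 ± 8.55 and 16.5 ± 5.54 CPM. Hist3h2ba was at 2.04, 1.95 and 7.86 CPM in Control and at 9.75, 4.88 and 7.02 CPM in the OcKO group, a log2 fold change of 0.87 (SE 0.78, adjusted p = 0.771). Control 3 lay within the OcKO range and the other Control libraries below it, and without Control 3 the log2 fold change was 1.88. Hist1h2bk was at 2.01, 5.46 and 8.04 CPM and at 3.01, 2.13 and 3.52 CPM, with 2 of 3 Control libraries above all of OcKO (log2 fold change -0.84, and -0.35 without Control 3). Hist1h2bj, at 0.331, 3.01 and 4.35 CPM and at 6.53, 0.814 and 3.50 CPM, had no order between the groups. Hist1h2bg, at 0.662, 1.69 and 1.84 CPM and at 1.03, 0.704 and 1.01 CPM, again had 2 of 3 Control libraries above all of OcKO. The median log2 fold change of the 7 tested H2B genes was -0.42.

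H3 had the lowest sum, 1.56 ± 1.76 CPM in Control, against 3.58 ± 2.22 in OcKO. Only Hist1h3f reached a group mean of 1 CPM. It was at 0.221, 0.659 and 0.058 CPM in Control and at 0.982, 2.44 and 1.87 CPM in OcKO, where all libraries lay above those of Control. The log2 fold change of 2.48 (SE 1.11) did not pass the test (adjusted p = 0.472), and was 3.66 without Control 2. Hist1h3f would not have passed the filter on low counts without its OcKO counts, so its p is not read further. Other H3 genes came from few libraries. Hist1h3e had 51 and 52 counts in OcKO 2 and OcKO 3 and 0 elsewhere, Hist1h3c 31 counts in OcKO 3 alone, and Hist1h3g 81 of its 87 counts in Control 2.

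The H4 sum was 10.96 ± 4.98 CPM in Control, against 9.86 ± 4.34 in OcKO. Hist1h4h was at 1.79, 9.97 and 3.34 CPM in Control and at 0.776, 1.67 and 1.58 CPM in OcKO, where every library was below Control (log2 fold change -1.91, SE 0.92, adjusted p = 0.515). Control 2 alone held 52.1% of its summed CPM, and leaving it out gave a log2 fold change of -0.91. Hist1h4i was at 0, 0.158 and 0.432 CPM in Control and at 5.37, 0.836 and 1.23 CPM in OcKO, where every library was above Control (log2 fold change 3.64, SE 1.60, adjusted p = 0.462). OcKO 1 held 66.9% of its summed CPM, and the log2 fold change was 2.37 without it and 4.93 without Control 3. Hist1h4i, too, would not have passed the filter on low counts without its OcKO counts, so its p is not read further. Hist1h4h and Hist1h4i both encode H4 and have the same stem, and only the last base of the loop differs, as printed above. Hist2h4, with the loop of Hist1h4i, had a log2 fold change of -0.12. Hist1h4c and Hist4h4, with the loop of Hist1h4h, were at 0.20 and 0.45. A link between loop and level was not tested. Hist1h4d, which did not pass the filter, had 1 count in each Control library and 37, 34 and 7 counts in OcKO.

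The other H4 genes overlapped between groups. Hist2h4 was at 2.81, 4.40 and 1.01 CPM in Control and at 5.57, 1.08 and 0.911 CPM in OcKO. Its log2 fold change of -0.12 became -1.47 without OcKO 1, 0.43 without Control 2, 0.27 without either OcKO 2 or OcKO 3 and 0.039 with scaling by library size alone. Hist1h4c was at 0.689, 0.079 and 2.48 CPM and at 1.21, 1.54 and 0.985 CPM. Hist4h4, the only gene of its cluster, was at 1.41, 0.026 and 1.21 CPM and at 1.05, 1.54 and 1.03 CPM. Without Control 2 the log2 fold changes of the last 2 genes went from 0.20 to -0.32 and from 0.45 to -0.092, and without Control 3 that of Hist1h4c was 1.71.

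**Figure D5:**
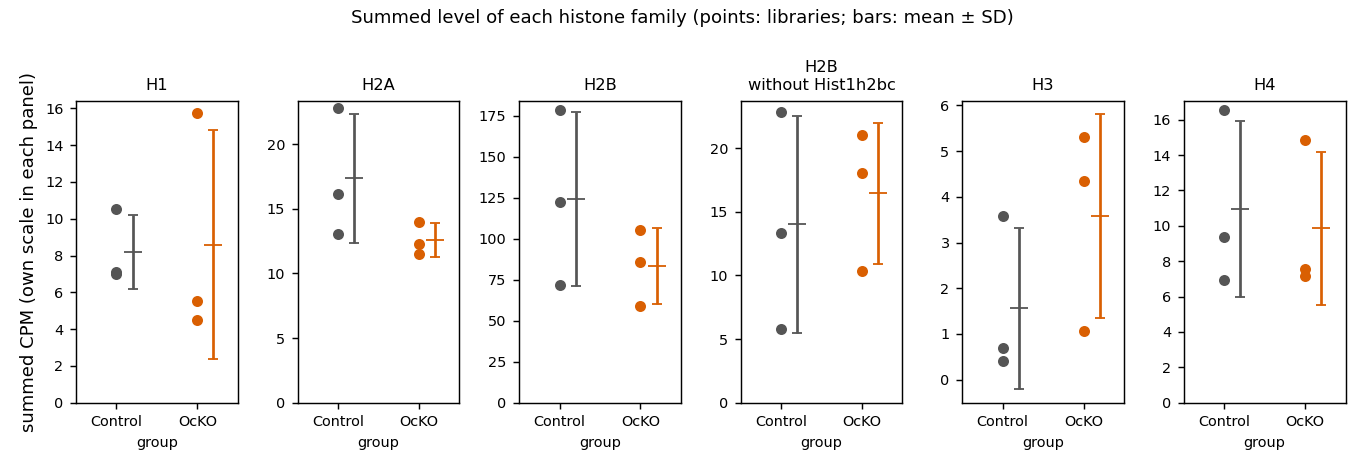
Summed CPM of each histone family in each library (points), with mean ± SD beside them, each panel on its own linear scale. In every panel the ranges of Control and OcKO overlap, and H2B is at 14.0 and 16.5 CPM once Hist1h2bc is left out.

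By cluster, the sums were 152 ± 60.3 and 104 ± 25.3 CPM for Hist1, 3.53 ± 1.79 and 2.93 ± 2.91 for Hist2, 6.27 ± 4.34 and 9.89 ± 3.13 for Hist3 and 0.881 ± 0.747 and 1.21 ± 0.287 for Hist4 (Control, then OcKO, SD, n = 3 each). Without Hist1h2bc the Hist1 cluster was at 41.4 ± 12.4 and 37.1 ± 7.42 CPM. Over all 68 genes the sum was 162 ± 59.6 and 118 ± 30.8 CPM, and without Hist1h2bc 52.1 ± 13.7 and 51.1 ± 13.0 CPM. The median log2 fold change was 0.08 for 19 tested Hist1 genes, -0.39 for 2 of Hist2, 0.56 for 2 of Hist3 and 0.45 for the Hist4 gene. The Hist4 gene and some genes of Hist1 and Hist2 passed the filter only with their OcKO counts, so these medians are not read further.

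Of the 52 histone genes with counts, 14 (26.9%) were seen in OcKO libraries alone and 4 (7.69%) in Control libraries alone. Over all 27431 genes with counts, these shares were 17.1% and 6.22%, also higher for OcKO. Of the 14, 10 came from 1 library, 3 from 2 and 1, Hist1h1e, from all 3, and 7 had no more than 3 counts. OcKO 3 alone held 5 of the 10, among them Hist1h2bp with 56 counts. Of the 33 histone genes with 20 or more counts, 11 had over 50% of their summed CPM in a single library. Among all genes with 20 to 200 counts in sum, 60.1% had, beside 9 of 17 histone genes. Of the 6226 genes with at least 20 and under 200 counts, 45.5% had counts in at most 3 libraries, beside 6 of 17 histone genes (35.3%).

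The genes that make and handle histone messages were followed as 5 lists, and none of their tested members was called by edgeR. At an unadjusted p under 0.05, 1 gene for transcription was higher and 1 lower, 1 for 3′ end formation higher, 1 for decay higher and 1 lower, 4 chaperones higher and 2 lower, and 1 replacement histone higher. Of all genes tested, 5.93% were higher and 5.21% lower at that p. The 4 chaperones include Cdan1, which was tested only because of its OcKO counts. Of 9 tested genes for histone gene transcription the median log2 fold change was 0.15. Npat, the activator at histone loci, was at 28.8 ± 2.19 and 34.8 ± 12.5 CPM (Control, then OcKO) and Casp8ap2 at 166 ± 30.6 and 130 ± 68.6 CPM. Cramp1l, which acts on linker histone genes, was at 2.10, 0.896 and 1.35 CPM in Control and at 18.6, 6.995 and 14.7 CPM in OcKO. Its groups did not overlap, but the adjusted p was 0.120 with edgeR. DESeq2 gave 7.5e-05.

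Of 12 tested genes for 3′ end formation the median was -0.04. Slbp was abundant, at 1812, 2102 and 1813 CPM in Control and at 1401, 2106 and 1080 CPM in OcKO, with overlap, a log2 fold change of -0.32 (SE 0.25). Lsm10 was at 159 ± 33.0 and 168 ± 15.2 CPM, Lsm11 at 18.8 ± 9.25 and 11.3 ± 1.99 CPM, and Zfp473, which also acts in the cleavage, at 94.0 ± 5.85 and 83.9 ± 38.0 CPM. Srrt, which had the smallest p of this list, was at 28.2 ± 8.45 and 56.0 ± 9.26 CPM (adjusted p = 0.260 with edgeR, 0.048 with DESeq2). The U7 RNA gene Rnu7 had 0 counts in all libraries.

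Of 6 tested genes for histone mRNA decay the median was 0.20. Lsm1, part of the ring that starts decapping, was at 30.3 ± 10.9 and 64.4 ± 5.26 CPM (adjusted p = 0.213 with edgeR, 0.025 with DESeq2). The 19 histone chaperones had a median of 0.12. Their smallest p was that of Cdan1, a partner of the chaperone Asf1, at 0.325 ± 0.145 and 6.67 ± 2.82 CPM (adjusted p = 0.120 with edgeR, 1.1e-05 with DESeq2). Cdan1 would not have passed the filter on low counts without its OcKO counts, so its p is not read further. The 12 linker and replacement histones, most of whose messages end in a poly(A) tail, had a median of 0.28, with 11 of 12 positive, beside 50.8% of all genes tested. Most of these 11 log2 fold changes were smaller than their SE, so the direction is not read as a shared rise. H1foo, the oocyte linker histone, was at 3272 ± 79.4 and 3021 ± 638 CPM. H2afz was at 20.0 ± 2.29 and 35.0 ± 7.34 CPM, its groups apart (adjusted p = 0.354).

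Markers of oocytes and of other cell types were checked as lists. Oocyte markers summed to 28774 to 46785 CPM in Control and 23819 to 29212 CPM in OcKO. Granulosa and cumulus markers (12 genes) summed to 66.4 to 120 and 99.0 to 121 CPM. Of the 10 tested, 7 were positive, with a median log2 fold change of 0.51 (all genes tested, 50.8% positive and a median of 0.01). Of these 7, Nr5a1, Amhr2, Kitl and Cyp11a1 passed the filter on low counts only with their OcKO counts. So did Fshr, which was negative. The split and the median are therefore not read further. The largest parts were Cyp19a1 at 28.2 ± 8.06 and 22.1 ± 12.0 CPM, Nr5a2 at 24.1 ± 10.9 and 31.2 ± 7.55 and Inha at 12.7 ± 2.26 and 26.5 ± 15.3. Foxl2, which defines these cells, was at 0 in Control and at most 0.049 CPM in OcKO. Theca and stroma markers (8 genes) summed to 2.40 to 7.84 and 1.80 to 5.28 CPM, blood and immune markers (9 genes) to 4.44 to 13.4 and 1.19 to 7.48 CPM, and dividing-cell markers (7 genes) to 427 to 494 and 429 to 451 CPM. Within these lists Nr5a1 and Cyp17a1, like Hist1h1e, had 0 CPM in every Control library, and were at 1.03 to 2.97 and at 0.457 to 0.763 CPM in OcKO. Their part in the Hist1h1e values was not tested. The smallest p of the other marker lists were those of Bmp15 at 6157 ± 1445 and 3216 ± 847 CPM, Ptprc at 1.83 ± 0.309 and 1.13 ± 0.516, and Mki67 at 114 ± 23.2 and 88.5 ± 20.1, and no marker was called by edgeR. At an unadjusted p under 0.05, 2 oocyte markers were lower, beside 5.21% of all genes tested. Higher were 1 granulosa marker (Nr5a1) and 2 theca or stroma markers (Cyp17a1 and Col3a1), beside 5.93% of all genes tested. Col3a1 was at 0.065 ± 0.045 and 0.741 ± 0.388 CPM. DESeq2, which called 4.7% of its genes, gave an adjusted p of 0.010 for Bmp15. Nr5a1, Cyp17a1 and Col3a1 passed the filter through their OcKO counts alone, so no p is read for them and their number supports nothing further.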

How the data were processed

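Counts of reads per gene, not normalized, were deposited by the authors as 1 table and as 1 file per sample, which differed in 0 values. The submitters' processing notes name Trimmomatic 0.36, STAR 2.5.2b, featureCounts and Subread 1.5.2, with the build GRCm38. Annotation release, strand setting and the handling of multiply matching reads are not stated there.

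From these counts, Control and OcKO libraries were compared with edgeR 4.0.16 (quasi-likelihood test, TMM scaling, filterByExpr) in R 4.3.3. The fit ran over all 16060 genes that passed, with Benjamini-Hochberg adjustment over them and calls at 0.05. The SE was derived from the fold change and its F statistic. CPM are TMM-scaled. CPM per kb divide by the exon length of the deposited annotation. Alternatives used DESeq2 1.42.0, limma voom 3.58.1, other scalings and filters, a replicate block and libraries left out. The scripts were run on simulated counts with known changes before use.

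The histone genes and the lists were chosen with earlier results of these data known. Named are the histone genes with a group mean of at least 1 CPM, those called, and the highest per kb in each family and cluster. Of the lists, Rpa1, 6 fixed processing genes and otherwise the gene with the smallest p in each list are named. Genes outside the rule were chosen after their values were seen. These are Hist1h1e, Hist1h2ba, Hist1h4d, the partners in the facing pairs, the sporadically counted genes and the genes at 0 or without a stem-loop. Outside the histone genes they are Rnu7, H1foo, Cyp19a1, Nr5a2, Inha, Amhr2, Kitl, Cyp11a1, Fshr, Col3a1 and Foxl2.

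Transcript sequences came from GENCODE M21 and promoters from RefSeq (GRCm38.p6). Sequence shared with other genes was counted in stretches of 50 bases. A genome sequence was not used here, so stem-loops were searched in transcripts only.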

Additional observations from a re-analysis of the deposited data

How the results depend on the processing

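Under 14 alternatives no histone gene was called in either direction, while the calls over all genes went from 23 to 749 with DESeq2, 34 without a filter, 32 at a mean of 1 CPM, 30 with library size alone, 1 with limma voom and 0 to 5 with 1 library left out. The median log2 fold change of the tested histone genes, 0.14, was 0.57 with voom, and -0.13 to 0.46 with 1 library left out, and the cause was not tested. Left-out libraries gave 44 to 47 histone genes under 1 CPM in every library. Leaving out the 25 genes whose exons overlap another gene made this 23 of 43, by construction. Library size alone raised the median of all genes from 0.01 to 0.18 and turned Hist2h4 to 0.039 and Zfp473 to 0.0055. Voom turned Hist1h1c to -0.35. With 1 library left out, the log2 fold changes that changed sign ranged from -0.26 to 1.13 for Hist1h2bj, -0.32 to 1.71 for Hist1h4c, -1.09 to 0.50 for Hist1h1c, -0.32 to 1.65 for Hist1h1d, -1.47 to 0.43 for Hist2h4, -0.13 to 0.54 for Hist3h2a, -0.092 to 0.96 for Hist4h4, -0.071 to 0.26 for Lsm10, -0.59 to 0.13 for Zfp473 and -0.72 to 0.00019 for Casp8ap2. Of the 16 histone genes named by rule, 9 kept their direction in the 13 alternatives fitted per gene. Of those 9, the log2 fold changes with 1 library left out ranged from 0.55 to 1.88 for Hist3h2ba, -2.32 to -0.91 for Hist1h4h, 2.01 to 3.66 for Hist1h3f and 2.37 to 4.93 for Hist1h4i. At this depth 44 of the 68 genes did not pass the filter, and the median SE of those tested was 1.13 on the log2 scale.

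The labels state no pairing of the libraries by replicate number. Deviations of same-numbered libraries from their group means correlated at -0.046, -0.030 and -0.072. With 3 libraries per group these values cannot decide whether libraries were paired. With the replicate block, 0 genes were called over all genes, 0 histone genes were called, the median of the tested histone genes was 0.40, Hist1h1c turned to -0.36 and the adjusted p of Rpa1 was 0.159.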
